A study of Homo sapiens with 6 samples.

Results

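VCAM1 and ICAM1 encode a pair of cell-surface ligands that leukocytes grip when they leave the blood. Both genes were taken by name from the authors' deposited table, where they are 2 of 986 listed genes. RNA sequencing was done on K1, an established line of papillary thyroid carcinoma cells grown in DMEM with 10% FBS. The control group holds 3 libraries from cells transfected with a control, and the group here called miR-31 KO holds 3 libraries from cells transfected with an sgRNA against miR-31, a microRNA gene. The labels give no genotype of the edited cells, no time after transfection and no statement on clones, and they name no separate cultures behind the libraries of a group. The p-values thus measure spread among these libraries alone, and that spread may be technical.

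VCAM1 belongs to the immunoglobulin superfamily, is made by endothelial and other cells under inflammatory signals, and binds the integrin of ITGA4 and ITGB1 on lymphocytes and monocytes. ICAM1, of the same superfamily, is present at a low level on many cell types, binds the integrins of ITGB2 with ITGAL or ITGAM, and supports firm arrest of leukocytes and contact with T cells. Tumour necrosis factor and interleukin-1 induce both genes through NF-kappa-B, and interferon-gamma also induces ICAM1. In thyroid tissue ICAM1 is known on follicular cells in autoimmune thyroid disease.

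VCAM1 (ENSG00000162692.11) lies on the plus strand of chromosome 1, chr1:100719742-100739045 (GRCh38, GENCODE release 29), and its longest coding transcript has 9 exons. ICAM1 (ENSG00000090339.8) lies on the plus strand of chromosome 19, chr19:10270835-10286615, with 7 exons in its longest coding transcript. No other annotated gene overlaps VCAM1. A total of 2 antisense genes on the minus strand, AC011511.2 and AC011511.5, overlap ICAM1, and since the sources used here do not say whether counting used strand, their reads and those of ICAM1 cannot be told apart.

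The bases before both gene starts are shown because the inflammatory regulation of these genes is read there. Sequences are from RefSeq (GRCh38.p14, plus strand, 5′ to 3′), position -1 is the base before the RefSeq gene start, and capitals mark matches to the NF-kappa-B consensus, to TATAAA or to TTCNNNGAA, a palindrome found in promoters that respond to interferon-gamma. The VCAM1 stretch covers positions -100 to -1 (chr1:100719642-100719741). For ICAM1, short windows around single matches are given, since GENCODE begins the gene further upstream; they lie at chr19:10270923-10270952, chr19:10271035-10271063 and chr19:10271080-10271105.
VCAM1 upstream: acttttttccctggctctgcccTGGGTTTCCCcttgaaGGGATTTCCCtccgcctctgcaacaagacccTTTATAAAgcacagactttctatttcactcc
ICAM1 NF-kappa-B window: tgctttagctTGGAAATTCCggagctgaag
ICAM1 palindrome window: ggcgcgaggtTTCCGGGAAagcagcaccg
ICAM1 TATA window: tggctagcgcTATAAAggatcacgcg

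Motifs were searched on both strands of the 250 bases upstream. The NF-kappa-B consensus was searched as KGGRNNYYCC, a form that allows T beside G as its first base. Here K is G or T, R is A or G, Y is C or T, and N is any base. VCAM1 had matches to the NF-kappa-B consensus at -78 to -69 and -62 to -53, separated by a few bases. ICAM1 had 1 match, at -187 to -178. Only the VCAM1 match at -62 to -53 begins with G, and the others begin with T, so these matches depend on the looser first base. Of 35116 RefSeq promoters, 17.5% held a match to this pattern, with either first base, in the same window. Both genes had TATAAA close to the start, at -29 to -24 in VCAM1 and -30 to -25 in ICAM1, where 10.7% of promoters held it anywhere in the window; VCAM1 also had it on the minus strand at -205 to -200 and, overlapping the match near the start, at -31 to -26. The TTCNNNGAA palindrome was at -75 to -67 in ICAM1 and was held by 6.57% of promoters. GGGCGG, the core of the GC box bound by SP1, was present 2 times in ICAM1 on the minus strand and was held by 42.6% of promoters. TGANTCA, the AP-1 motif, was in neither window, and 6.57% of promoters held it. The ICAM1 window was richer in G and C, 66.0% with 23 CpG dinucleotides, against 46.0% and 2 in VCAM1 and medians of 58.0% and 11 over all promoters. A match describes letters only; binding was not measured.

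**Figure D1:**
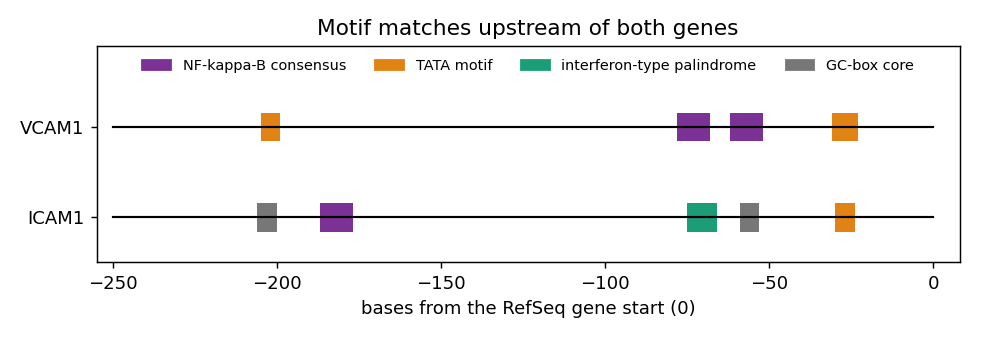
Motif matches in the 250 bases upstream of the RefSeq gene starts of VCAM1 and ICAM1; the x axis is the distance from the gene start in bases, and each box is 1 match in either orientation. VCAM1 has 2 neighbouring NF-kappa-B boxes near its TATA motif, and ICAM1 has 1 such box further upstream and a palindrome match. The NF-kappa-B pattern allowed G or T as its first base.

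The targeted microRNA is shown because a site for it in a transcript is the most direct link the design allows. Its mature form is encoded at chr9:21512158-21512178 (GRCh38.p14, minus strand), with the seed, bases 2 to 8, in capitals.
hsa-miR-31-5p: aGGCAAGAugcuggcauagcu

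A seed match would read TCTTGCC in DNA letters. The longest annotated 3' UTR of VCAM1 has 762 bases and that of ICAM1 has 1328, and neither held an 8mer, 7mer-m8 or 7mer-A1 site, nor the 6 bases opposite positions 2 to 7 of the microRNA. Among 2967 genes with 3' UTRs of a length close to that of VCAM1, 10.1% had such an 8mer or 7mer site, and among 3541 genes with a length close to that of ICAM1, 16.3% did. Other kinds of site, in other regions of the transcripts, were not searched. Sites for the mature form from the other arm of the precursor were not searched either. MIR31 itself was not among the listed genes, so the targeted gene gave no check of the labels.

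The question of the comparison was how transcript levels differ once miR-31 is targeted, and values are the authors' normalized read counts. The VCAM1 level was 71.5, 22.1 and 15.6 normalized counts in control replicates 1, 2 and 3, and 1725, 1893 and 833 in miR-31 KO replicates 1, 2 and 3. Every KO library stood far above every control library: the lowest KO value was 11.7 times the highest control value. The means were 36.4 ± 30.5 in control and 1484 ± 570 in KO (SD, n = 3 each), and the authors' deposited table gives a log2 fold change of 5.34 with an adjusted p of 1.64e-27. In bulk RNA, a change in the number of cells that express a gene and a change in RNA per cell cannot be told apart.

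ICAM1 started from a much higher level. Its controls 1, 2 and 3 held 1736, 741 and 758 normalized counts, with 4217, 3972 and 2571 in the KO replicates. The groups again did not overlap, but control replicate 1 and KO replicate 3 came close, with the KO value 1.48 times the control value. The means were 1078 ± 570 in control and 3587 ± 888 in KO (SD, n = 3 each), and the authors' deposited table gives a log2 fold change of 1.73 with an adjusted p of 1.51e-08.

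**Figure D2:**
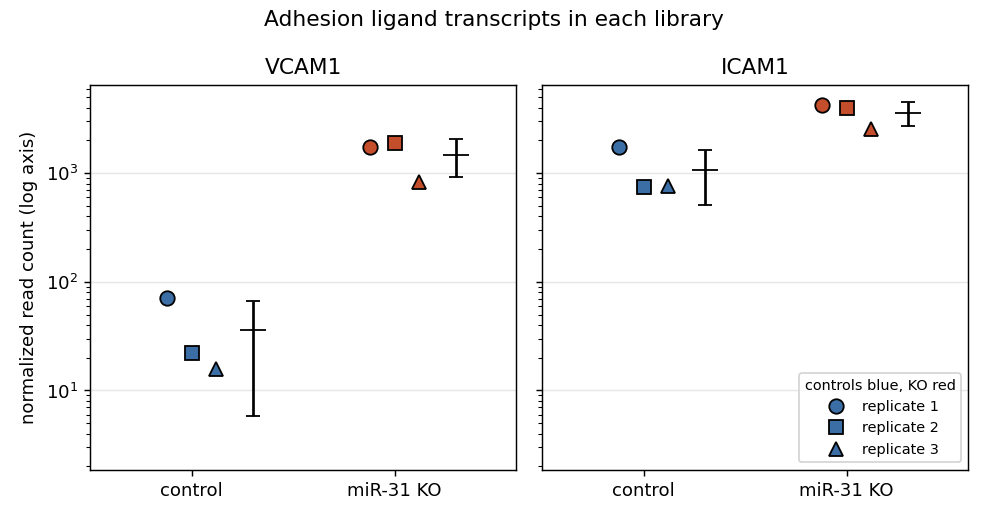
Normalized read counts (log axis) of VCAM1 and ICAM1 in each library, controls in blue and miR-31 KO in red; marker shapes are replicate numbers and the black bars are mean ± SD, n = 3. All KO values lie above all control values for both genes, with the smallest gap between ICAM1 in control replicate 1 (1736) and KO replicate 3 (2571).

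Both rises are calls of the authors' test over all genes they tested. The ratio of the adjusted to the raw p of the first gene gives 16806 tested genes, of which 3.53% were listed as higher and 5.87% as higher or lower. The table keeps genes that passed an adjusted p of 0.05 and differed at least 2-fold (log2 of 1). Of the 593 genes listed as higher, 91.1% had no overlap between the groups, so the absence of overlap in VCAM1 and ICAM1 is what most genes of this list show. Since both genes were taken from this list, their being listed follows from the choice. By deposited log2 fold change VCAM1 ranked 70 and ICAM1 375 among the 593. An exact two-sided permutation test over the 6 libraries, on log2(value + 1), gave p = 0.10 for each gene (adjusted p = 0.10 over 3 tests), the smallest p that 3 against 3 libraries allow. On that scale the difference between groups was 5.53 ± 0.74 for VCAM1 and 1.82 ± 0.46 for ICAM1 (SE, n = 3 per group).

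Across the 986 listed genes, VCAM1 moved from rank 519 by control mean to rank 74 by KO mean, and ICAM1 from 99 to 40. Per kilobase of its longest coding transcript (3083 bases), VCAM1 stood at 23.2, 7.15 and 5.07 normalized counts in controls 1, 2 and 3, and at 560, 614 and 270 in the KO replicates. ICAM1 (3252 bases) had 534, 228 and 233 in the controls and 1297, 1221 and 791 in the KO replicates. ICAM1 was thus the more abundant transcript per kilobase in all 6 libraries, by between 23.0 and 46.0 times in control and between 1.99 and 2.93 times in KO.

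The proportion of both transcripts also separated the groups. For every 100 normalized counts of ICAM1 there were 4.12, 2.97 and 2.06 of VCAM1 in control replicates 1, 2 and 3, and 40.9, 47.7 and 32.4 in KO replicates 1, 2 and 3. This proportion does not depend on a library's scaling factor, and its groups lay far apart relative to their spread. The log2 change of VCAM1 exceeded that of ICAM1 by 3.71 ± 0.31 (SE, n = 3 per group; log2(value + 1); exact two-sided permutation test, p = 0.10, the smallest possible; adjusted p = 0.10 over 3 tests).

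In each group 1 library stood apart in both genes, in the direction of the other group. Control replicate 1 had 3.79 times the mean of control replicates 2 and 3 for VCAM1 and 2.32 times for ICAM1. KO replicate 3 had 0.460 times the mean of KO replicates 1 and 2 for VCAM1 and 0.628 times for ICAM1. Placed on a log2 scale from 0 at control replicates 2 and 3 to 1 at KO replicates 1 and 2, control replicate 1 lay at 0.289 for VCAM1 and 0.495 for ICAM1, and KO replicate 3 at 0.829 and 0.726. ICAM1 in control replicate 1 was therefore about midway between the groups.

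The shift of these libraries was larger in VCAM1 and ICAM1 than in most genes listed as higher. Both libraries were singled out by the values of VCAM1 and ICAM1 themselves. A large shift in these genes thus follows in part from that choice, and the shares below only describe it. Over the 433 such genes with a mean of at least 10, the median ratio of control replicate 1 to its group's other libraries was 1.14, and the median ratio of KO replicate 3 to its group's others was 0.832 (after adding 1 to each value). A ratio in control replicate 1 at least as high as that of VCAM1 was seen in 16 of them (3.70%), and at least as high as that of ICAM1 in 50 (11.5%). In KO replicate 3, 55 genes (12.7%) had a ratio as low as VCAM1 and 113 (26.1%) a ratio as low as ICAM1. Genes near 0 in control can pass this filter through their KO values, and adding 1 then keeps their control ratio near 1. Over the 331 genes with a control mean of at least 10, the corresponding shares were 2.72% and 10.9% for control replicate 1 and 12.4% and 27.2% for KO replicate 3. What sets these libraries apart was not tested.

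**Figure D3:**
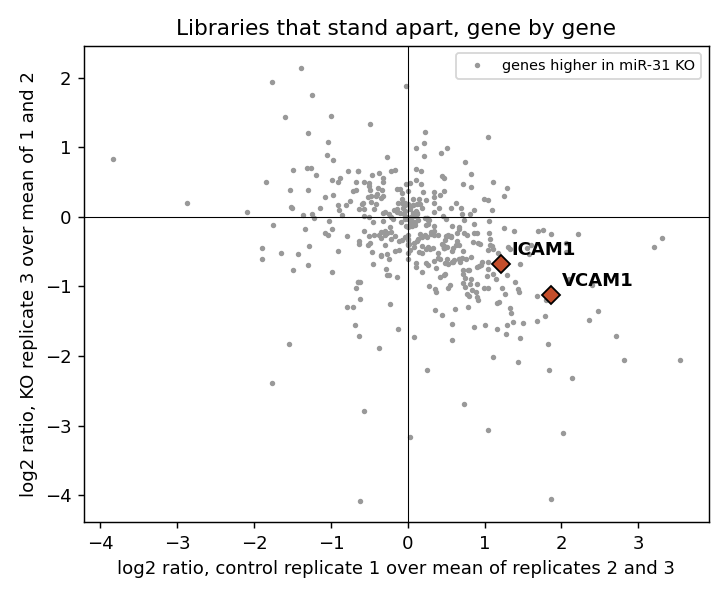
Each grey point is 1 of the 433 genes listed as higher in miR-31 KO with a mean of at least 10; the x axis is the log2 ratio of control replicate 1 to the mean of control replicates 2 and 3, and the y axis that of KO replicate 3 to the mean of KO replicates 1 and 2, after adding 1. VCAM1 and ICAM1 (diamonds) lie to the lower right, high in control replicate 1 and low in KO replicate 3.

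The size of the rise depended on these libraries. The ratio of group means was 40.8 for VCAM1 and 78.7 without control replicate 1, 49.7 without KO replicate 3, and 96.0 without both. For ICAM1 it was 3.33, then 4.78, 3.80 and 5.46. Without both libraries the control mean of VCAM1 was 18.8 and the KO mean 1809, and those of ICAM1 were 750 and 4094. In a limma refit of the listed genes the log2 change of VCAM1 was 5.53 (95% interval 4.24 to 6.82; adjusted p = 0.00226), and that of ICAM1 was 1.82 (0.99 to 2.65; adjusted p = 0.0411). The refit called 45.3% of the listed genes. The ICAM1 refit lost its call when any library other than control replicate 1 was left out, with adjusted p between 0.0805 and 0.305. Those refits called between 15.8% and 40.2% of all listed genes, so most listed genes had no call there either. VCAM1 kept its call without each library, with adjusted p of at most 0.0460.

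The genes whose profile over the 6 libraries lay nearest to that of each member were found by the root mean square difference of centred log2(value + 1) values, over 855 genes that reached a mean of 10 in either group. A gene could reach that mean through the KO group alone. The measure of nearness grows with the size of a gene's change. For VCAM1 the nearest were NOTCH4, an endothelial Notch receptor (0.63), CCL28, a mucosal chemokine (0.70), BEX1 (0.71), TNIP3, a partner of the NF-kappa-B inhibitor TNFAIP3 (0.72), and DIP2C (0.74). NOTCH4 had 11.9, 11.02 and 10.8 normalized counts in the controls and 617, 569 and 359 in the KO replicates, without the high value in control replicate 1 that VCAM1 showed. TNIP3 had 48.2, 29.1 and 16.6 in the controls and 629, 684 and 390 in the KO replicates, and so shared the order of libraries of VCAM1 in both groups. CCL28 was listed at 0 in all controls, and BEX1 and DIP2C had control means of 3.46 and 3.44. The control positions of these genes thus depend on the added 1.

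The profiles nearest to ICAM1 had smaller differences. They were those of AKR1C3, an aldo-keto reductase with near-identical paralogs among which reads may be split (0.17), the cytokine IL6 (0.17), SUN3 (0.17), the neutrophil chemokine CXCL8 (0.19) and PLIN1, a lipid droplet coat protein (0.19). PLIN1 had a control mean of 4.12, so its control position also depends on the added 1. IL6 had 5279, 2962 and 3028 normalized counts in the controls and 14653, 13731 and 7667 in the KO replicates. CXCL8 had 17086, 9848 and 10609 in the controls and 59332, 56217 and 31287 in the KO replicates. In both, as in ICAM1, control replicate 1 was the highest control and KO replicate 3 the lowest KO library. VCAM1 and ICAM1 were not near each other by this measure, with a difference of 1.88. ICAM1 ranked 191 by nearness to VCAM1, and VCAM1 ranked 698 by nearness to ICAM1. Since the measure grows with the size of a change, their unlike fold changes enter this difference. Control replicate 1 was the highest control and KO replicate 3 the lowest KO library in VCAM1 as in ICAM1.

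**Figure D4:**
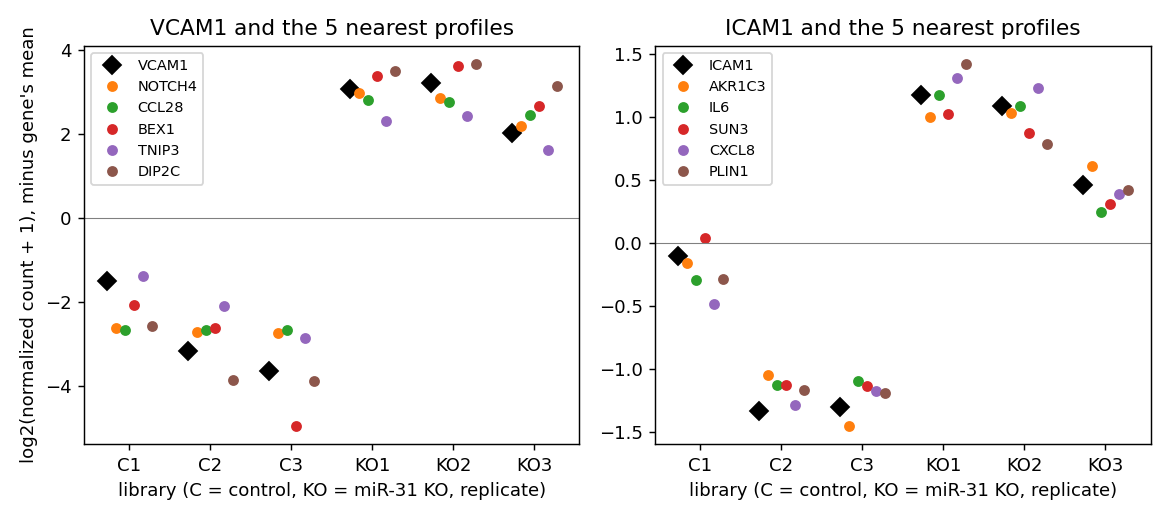
Centred log2(normalized count + 1) of VCAM1 (left) and ICAM1 (right) and of the 5 genes with the nearest profiles, in the 3 control (C) and 3 miR-31 KO libraries; each point is 1 gene in 1 library. The y axes differ: VCAM1 and its nearest genes span several log2 units, and ICAM1 and its nearest genes a narrower range. ICAM1 itself runs from -1.33 to 1.18.

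Beyond both members, 128 genes in 7 lists of leukocyte adhesion and its inducers were looked up by symbol, and 14 of them were listed, 11 as higher and 3 as lower. That is 10.9% of the symbols, beside 5.87% of all tested genes, where the lists were chosen with earlier results known and it is unknown how many of the symbols the authors tested. Among all 986 listed genes 593 were higher. The median deposited log2 fold change was 1.56 over the 14 and 1.27 over all listed genes. In 11 of the 14 the groups did not overlap, against 92.6% of all listed genes. Genes that are not listed cannot be called unchanged.

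Among 24 other adhesion molecules of the immunoglobulin superfamily, 2 were listed as higher and 2 as lower. ICAM2, a constitutive ITGB2 ligand of endothelial cells, rose from 2.09 ± 2.80 to 28.8 ± 5.65 normalized counts (SD, n = 3), and JAM3, a junctional molecule that also binds ITGAM, rose from 41.1 ± 2.65 to 237 ± 31.5. L1CAM, a neural adhesion molecule, fell from 5621 ± 424 to 1078 ± 376, and CEACAM1, a homophilic adhesion receptor, fell from 57.9 ± 11.8 to 22.2 ± 4.50. Their deposited log2 fold changes were 3.73, 2.52, -2.38 and -1.38. Adhesion molecules of this family thus moved in both directions, and ICAM3, ICAM4, ICAM5, PECAM1 and MADCAM1 were not among the listed genes.

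Of 13 selectins and selectin ligands, PODXL was listed. It encodes a sialomucin that can carry selectin ligands and rose from 4162 ± 376 to 13897 ± 295, a deposited log2 fold change of 1.74, close in size to that of ICAM1. Control replicate 1 and KO replicate 3 did not stand apart in PODXL: it had 3789, 4542 and 4155 in the controls and 13782, 14232 and 13676 in the KO replicates. SELE, the endothelial selectin, was not listed.

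Of 12 counter-receptors 1 was listed as higher and 1 as lower. MUC1, an epithelial mucin that binds ICAM1, fell from 61.3 ± 2.88 to 11.3 ± 3.60. ITGAM, the leukocyte integrin chain that binds ICAM1, had 5.62, 20.0 and 12.8 in the controls and 17.9, 22.4 and 92.6 in the KO replicates; its groups overlapped and its deposited adjusted p was 0.0458. The chains ITGA4, ITGB1, ITGAL and ITGB2 were not listed. None of 11 cytoskeletal partners, such as EZR and MSN, and none of 10 shedding proteases and their inhibitor, such as ADAM17, was listed.

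Of 24 inducing cytokines and receptors, 5 were listed, all as higher, with IL6, described above, among them. TLR4, the endotoxin receptor, rose from 161 ± 41.0 to 762 ± 69.4. IL1A, an interleukin-1 form, rose from 1620 ± 530 to 4396 ± 993, and TNFRSF1B, a tumour necrosis factor receptor, rose from 16.1 ± 8.34 to 129 ± 76.6. IL1B was named in addition because its groups overlapped. It had 24935, 9830 and 8285 in the controls and 48730, 45976 and 14155 in the KO replicates. Its deposited log2 fold change was 1.34, with a deposited adjusted p of 0.00774. TNF, IFNG, IL1R1 and TNFRSF1A were not listed.

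Of 34 transcription factors and NF-kappa-B regulators, 2 were listed, both as higher and both inhibitors that NF-kappa-B itself induces. NFKBIA rose from 5004 ± 995 to 10058 ± 1707, a deposited log2 fold change of 1.01. TNFAIP3 was listed with 1.04 and overlapping groups, 7804, 4259 and 4105 in the controls and 13375, 13099 and 6780 in the KO replicates. NFKB1, RELA and IRF1 were not listed. Of the 11 listed pathway genes that were higher, control replicate 1 was the highest control in 8 and KO replicate 3 the lowest KO library in 10, as in VCAM1 and ICAM1. Over all 593 genes listed as higher these shares were 43.8% and 50.8%. The 593 include genes listed at 0 in all controls, such as CCL28, in which no control is highest, and this lowers the first share. Nothing particular to the pathway genes is read from the counts.

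**Figure D5:**
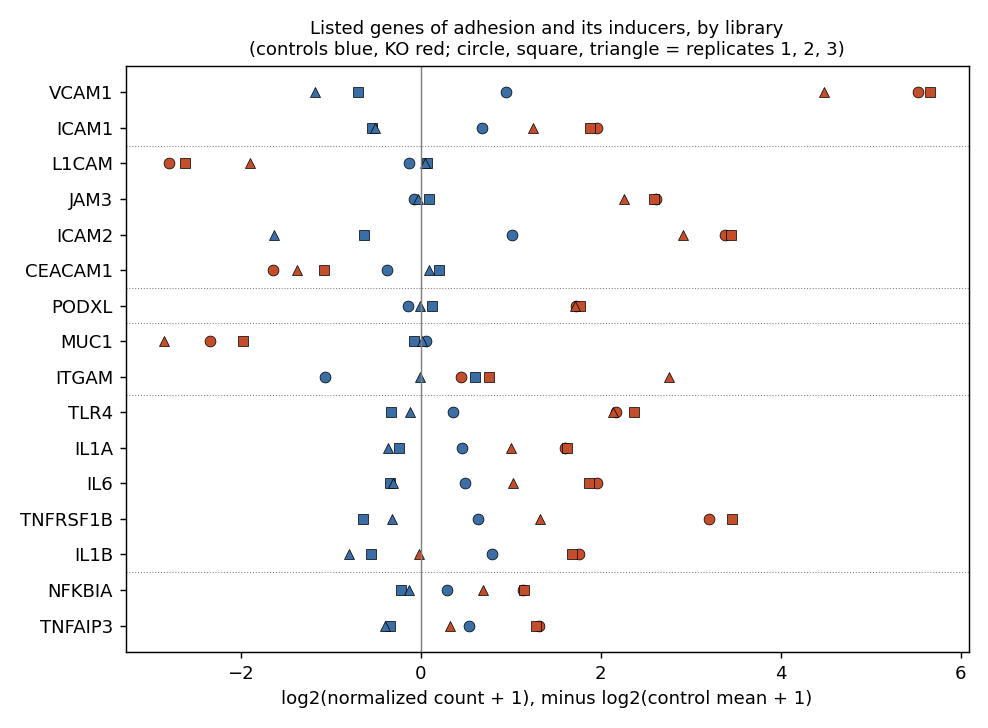
Log2(normalized count + 1) minus the log2 of the control mean + 1, for VCAM1, ICAM1 and the 14 listed genes of the pathway lists, grouped by dotted lines; controls are blue and miR-31 KO red, with circle, square and triangle for replicates 1, 2 and 3. KO points lie to the right of control points on average for VCAM1, ICAM1 and 11 other genes and to the left for L1CAM, CEACAM1 and MUC1, and they overlap with controls for ITGAM, IL1B and TNFAIP3.

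Markers of cell types that carry these ligands were looked up as well. Their lists too were chosen with earlier results known, and it is unknown how many of the symbols the authors tested. Beside the counts below, 5.87% of all tested genes were listed. Of 14 endothelial markers 3 were listed, and their summed level was between 1386 and 2232 normalized counts in the controls and between 4482 and 6158 in KO. TIE1, an endothelial receptor, rose from 996 ± 513 to 4971 ± 974 and KDR from 213 ± 52.0 to 432 ± 54.2, while ERG, an endothelial transcription factor, fell from 474 ± 32.8 to 134 ± 2.25. PECAM1, CDH5 and VWF were not listed. Of 11 fibroblast and mural markers 2 were listed, with sums of 2.01 to 8.49 in control and 26.7 to 42.5 in KO, where LUM was listed at 0 in all controls. Of 13 leukocyte markers 2 were listed, with sums of 5.62 to 20.0 and 21.9 to 97.7, where CD3D was listed at 0 in all controls. Of 11 thyroid follicular markers 2 were listed, SLC26A4 and DUOX2, with sums of 69.7 to 116 in control and 31.0 to 37.0 in KO, while TG and TSHR were not listed, so the labelled cell type could not be checked by them. Of 10 epithelial markers 3 were listed, all lower, with sums of 1168 to 1891 in control and 466 to 665 in KO. The keratin genes KRT19 and KRT7 fell from 1405 ± 366 to 469 ± 90.0 and from 151 ± 31.5 to 61.3 ± 21.7, and MUC1 is described above. All these sums cover listed markers only, each of which had already passed the 2-fold threshold, so they are not levels of a cell type. The endothelial sum joins 2 genes that rose and 1 that fell. The highest leukocyte sum in KO, 97.7, was mostly ITGAM in KO replicate 3 (92.6), a gene whose groups overlapped. The part of these cell type markers in the results was not tested.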

How the data were processed

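The authors deposited normalized read counts per gene (a signal unit) for 986 genes, with log2 fold change and p-value and adjusted p-value columns. The submitters' processing notes name Bowtie2, HISAT and RSEM, and hg19 with hg38 as builds, without saying what each was for; how values were normalized and tested is not given in the sources used here. Trizol was the extraction reagent, per the labels' protocols. The series text speaks of duplicates, but titles run to 3 in each group, which was followed. Summed normalized counts of the listed genes lay between 545354 and 943360 per library; depth is unknown, so no counting intervals are given.

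Main values are the deposited ones. The members and gene lists were chosen with earlier results of these data known. Refits with limma 3.58.1 (R 4.3.3; trended eBayes, log2(value + 1), Benjamini-Hochberg over 16806 genes) estimate the spread on a selection of genes, and were checked on simulated data. Named genes are both members, up to 4 listed genes per list by adjusted p, and the 5 nearest profiles per member. Deviations of same-numbered libraries from their group means had correlations of 0.20, -0.13 and 0.15 over genes. Different-numbered libraries were not compared, so these values cannot decide whether samples were paired. Numbers were not taken to pair samples, and refits with a replicate block are given below. Python 3.11.15 with pandas 2.3.3, numpy 2.4.6, scipy 1.17.1 and matplotlib 3.10.9 was used. Protein sequences were not used here.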

Additional observations from a re-analysis of the deposited data

How the results depend on the processing

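Both genes kept the direction of the deposited fold change in every refit run. For VCAM1 the refits gave log2 changes between 5.10 and 6.16 with 1 library left out, and all kept the call. For ICAM1 leaving out 1 library gave between 1.61 and 2.22. The ICAM1 call was lost with a pseudocount of 0.1 (1.82, adjusted p = 0.0690) and where a mean of at least 50 was asked for (1.82, adjusted p = 0.0854). With that minimum the SE was 0.371, against 0.360 in the refit of all listed genes. Only 521 genes were then ranked while the adjustment still ran over 16806, which by itself can raise an adjusted p. The ICAM1 call was also lost without control replicate 2 (1.61), control replicate 3 (1.63), or KO replicate 1 (1.69), 2 (1.73) or 3 (2.04). The cause was not tested. With a pseudocount of 10 the changes were 5.11 and 1.81. Quantile normalization shifted the median log2 change of all listed genes by -0.44 and gave 5.25 and 1.68. Leaving out control replicate 1 and KO replicate 3 together, chosen after the data were seen, gave 6.53 and 2.45, both with adjusted p = 0.000103. With the replicate block the changes were 5.53 (adjusted p = 0.00176) and 1.82 (adjusted p = 0.0155), and the block changed no call. The excess of the VCAM1 over the ICAM1 change lay between 3.30 and 4.08 over all settings, and between 3.47 and 3.93 with 1 library left out; no setting could reach an exact p under 0.05, and with the replicate block it was 3.71 (exact p = 0.25). Of the 14 listed genes of the pathway lists, 13 passed an adjusted p of 0.01, and 6 had a log2 fold change of 2 or more in size. The limma refit called 8 of them, beside 45.3% of all listed genes. It called 8 with a pseudocount of 10 or quantile normalization (47.0% and 46.6% of listed genes), 5 with a pseudocount of 0.1 (39.5%), 4 with a mean of at least 50 (50.1% of 521 genes), 10 with the replicate block (42.3%), 12 without control replicate 1 and KO replicate 3 together (51.2%), and between 4 and 9 with 1 library left out (15.8% to 42.6%). The settings for this count were chosen after the data were seen. Total depth is unknown, and whether it limits the low control values of VCAM1 was not tested.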

Other observations

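No listed gene lay within 1 Mb of VCAM1, where GENCODE release 29 places 16 other protein coding genes. Around ICAM1, where 58 other protein coding genes are annotated within 1 Mb, 4 were listed. Of all tested genes 5.87% were listed, and how many of these neighbours the authors tested is unknown. Nothing particular to either region is read from the counts. The zinc finger genes ZNF266 and ZNF846 rose from 365 ± 75.2 to 785 ± 34.0 and from 20.0 ± 10.4 to 104 ± 38.9 normalized counts, and the phosphodiesterase gene PDE4A rose from 7.84 ± 3.32 to 28.2 ± 14.3 (SD, n = 3). AP1M2, an epithelial clathrin adaptor subunit, fell from 113 ± 17.7 to 44.4 ± 34.8. Their deposited log2 fold changes were 1.11, 2.38, 1.83 and -1.36. ICAM4 and ICAM5, which neighbour ICAM1, were not listed.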
